A study of Homo sapiens with 5 samples.

Results

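The giant coding sequences described here are the rows of the deposited tables with a length of at least 4000 codons and at least 100 ribosome footprints in all 5 libraries together. Of 93916 rows with a length, 171 reach 4000 codons. Of these, 20 held no count, 57 held 1 to 99 counts, and 94 met both limits. Rows with the same count in every library were collapsed, which left 76 rows with distinct counts, from 4013 to 8926 codons. They fall into 45 loci, of which 18 have a single row and PLEC has the most, with 9. Each locus is represented below by its row with the highest count, so its density depends on which row that is. MACF1, for example, held 871 counts in its representing row of 7593 codons and 870 in a row of 5431. The longest row of the tables, of 35992 codons, held 4 counts and was left out by the count limit.

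The tables carry transcript identifiers without gene names. A name was given where the codon number, less the stop codon, equals the known length of a human giant protein, and those protein lengths were recalled rather than read from a reference table. This named 72 rows, and 19 further rows took the name of a length-matched row beside them. The 3 rows left without a name are uc031usp.2, and uc021reb.1 with uc058tks.2, which share a locus. As a check, the 43 named loci were placed on the RefSeq annotation of GRCh38.p14. They fell on 16 chromosomes in 16 unbroken runs of the table order, and all 27 neighbouring pairs on one chromosome stood in ascending order of start. Gene coordinates given below are spans from that annotation. The codon number 5538 occurs for KMT2D and for a row of DST, and a row of DNAH14 shares its codon number with a row of PLEC. The rows beside them decided these names.

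The libraries come from HEK293T, a human embryonic kidney cell line, and every group carries a knockout. There was 1 library with QTRT1 knocked out, 2 with QTGAL knocked out and 2 with QTMAN knocked out. Unmodified cells were not analysed here, and no label says whether the libraries of one genotype came from separate clones or cultures, so p-values measure a spread that may be technical. Total counts ran from 12002044 to 25291912 per library. The rows of the 3 target genes were not examined here, so the knockouts themselves were not checked.

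QTRT1 encodes the catalytic subunit of the transglycosylase that exchanges a guanine for queuine in the anticodon wobble position of tRNAs for tyrosine, histidine, asparagine and aspartate. QTGAL and QTMAN then attach galactose in the tyrosine tRNA and mannose in the aspartate tRNA. Ribosomes read a giant coding sequence through a great many codons, and the proteins made serve as molecular motors, ubiquitin ligases, cytoskeletal linkers, kinases, lipid bridges and cell surface receptors. Footprints count ribosomes on an mRNA, so differences in mRNA amount and in translation cannot be told apart without RNA levels. No coding sequence was at hand, so the codon content of the members is not given.

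Footprint density, the library-scaled counts (CPM) per 1000 codons, differed widely between the loci. PRKDC, the catalytic subunit of DNA-dependent protein kinase (uc033bkh.1, 4129 codons), stood highest. Its density was 78.2 in the QTRT1 library and 85.3 to 90.3 in the other 4, with a mean of 85.5 ± 4.47 (SD, n = 5 libraries). HUWE1, a HECT-type ubiquitin ligase (uc064zld.1) of 4375 codons encoded at chrX:53532096-53686719, followed at 37.5 ± 3.16. DYNC1H1, the heavy chain of cytoplasmic dynein 1 (uc001yks.3) at chr14:101964573-102056443, had 24.5 ± 1.80 over 4647 codons. These 3 loci held ranks 1 to 3 in every library. They were also the only loci above 21.1, the median over all 42263 distinct rows with at least 100 counts. Of those rows, 30172 were under 500 codons, where the limit of 100 counts demands a higher density than in a giant row.

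The remaining loci lay well below those 3 and mostly overlapped their neighbours in rank. AHNAK, a repeat-rich scaffold protein (uc001ntl.4) at chr11:62433544-62546806, had a density of 12.9 ± 1.72 (SD, n = 5 libraries), and its rank among the loci ran from 4 to 6 between libraries. BIRC6, a ubiquitin-conjugating inhibitor of apoptosis, had 11.5 ± 0.999. DYNC2H1, the dynein heavy chain of intraflagellar transport, had 10.5 ± 0.680, and UBR4, an N-degron ubiquitin ligase, had 10.2 ± 0.693. The ranges of these 4 loci over the libraries overlap from each to the next, so their order is not resolved. In the whole ranking, 37 of 44 neighbours overlapped in this way. The median locus stood at 2.28, with quartiles of 1.14 and 5.44, and 10 loci lay below 1. Over the 34 loci with at least 500 counts the median was 3.59. The median coefficient of variation of a locus over the 5 libraries was 15.4%.

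**Figure D1:**
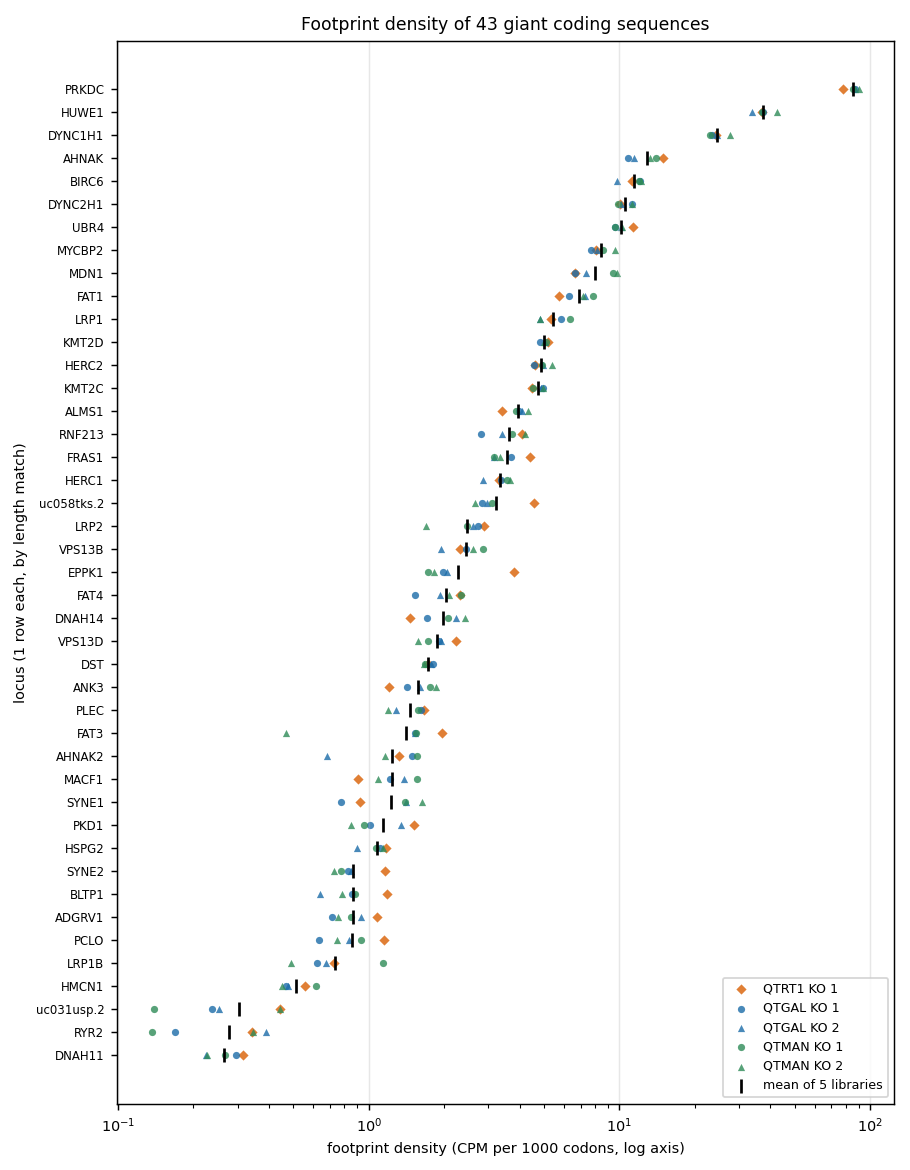
Footprint density of 43 of the loci, 1 row each, in CPM per 1000 codons on a log axis, with a point for each of the 5 libraries and a tick for their mean. PRKDC at 85.5, HUWE1 at 37.5 and DYNC1H1 at 24.5 stand apart at the top, and DNAH11 is the lowest drawn at 0.266.

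In CPM, these abundant giants stood at similar levels in all libraries. PRKDC had 323 CPM in the QTRT1 library, 359 in each QTGAL replicate, and 352 and 373 in the QTMAN replicates. DYNC1H1 stood at 113 CPM, at 109 and 114, and at 107 and 128 in the same order of libraries. BIRC6 had 54.5, then 58.6 and 47.7, then 58.4 and 59.2 CPM. In DYNC1H1 and BIRC6 the QTRT1 value lies between those of the other libraries, while that of PRKDC is the lowest of the 5.

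UBR4 had 58.5 CPM in the QTRT1 library, 49.7 and 52.4 in QTGAL and 49.8 and 53.2 in QTMAN knockout, so here the QTRT1 value is the highest. DYNC2H1 had 43.1, then 48.3 and 43.8, then 42.4 and 48.5 CPM. MYCBP2, a RING-type ubiquitin ligase, had 37.4, then 35.8 and 37.7, then 39.7 and 44.5 CPM. Both QTMAN values of MYCBP2 lie above the other 3 libraries.

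FAT1 had 26.3 CPM in the QTRT1 library, 28.9 and 33.5 in QTGAL and 36.0 and 32.9 in QTMAN knockout. KMT2D was the steadiest locus, with 28.6, then 26.8 and 28.0, then 28.1 and 27.6 CPM, a coefficient of variation of 2.42%. LRP1, an endocytic receptor of the LDL receptor family, had 24.2, then 26.5 and 22.0, then 29.0 and 22.0 CPM. Its replicates differ more than its genotypes. HERC2 had 22.4, then 22.1 and 23.9, then 23.7 and 25.9 CPM, and KMT2C had 22.0, then 24.2 and 23.8, then 22.1 and 24.2 CPM.

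By role, the 6 loci found of 7 on the ubiquitin ligase list had a median density of 9.29 and none lay under 3.35, the value of HERC1. The 4 dynein heavy chains of 15 listed split into the cytoplasmic DYNC1H1 and DYNC2H1 above 10 and the axonemal DNAH14 and DNAH11, whose proteins serve in motile cilia, at 1.97 and 0.266. The histone methyltransferases KMT2D and KMT2C lay close together at 5.02 and 4.74. MDN1, an AAA ATPase of ribosome assembly, stood at 7.98, and RNF213, an AAA ATPase that is also a ubiquitin ligase, at 3.64.

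Among 10 cell surface and matrix proteins of 15 listed, the atypical cadherin FAT1 was highest at 6.87 and the matrix protein HMCN1 lowest at 0.514. The lipid transfer proteins VPS13B, VPS13D and BLTP1 had 2.43, 1.88 and 0.868. The 9 cytoskeletal linkers of 10 listed had a median of 1.47. RYR2, a calcium release channel of heart muscle, had a density of only 0.277 and rests on few reads, with 122 counts over all 5 libraries. RYR2 had 1.71 CPM in the QTRT1 library, 0.839 and 1.94 in QTGAL and 0.682 and 1.72 in QTMAN knockout. DNAH11 had 1.42, then 1.34 and 1.01, then 1.21 and 1.02 CPM, and HMCN1 had 3.13, then 2.64 and 2.7, then 3.46 and 2.54 CPM. The QTGAL and QTMAN values overlap in all 3.

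The limit of 100 counts falls on counts and not on density, so it admits lower densities in longer rows. DNAH11 rows entered with 112 counts and RYR2 rows with 121 and 122. Just outside, uc010udj.3 of 4701 codons had 83 counts and uc010fgb.3 of 4159 codons had 73. Under the same limit, median density declined with each step in coding length, from 28.4 below 500 codons to 10.8 from 500 to under 1000 and 6.90 from 1000 to under 2000. It was 5.97 from 2000 to under 4000 codons and 1.76 for the 76 giant rows. Over every row with a length the medians were 6.31, 3.92, 3.60, 2.20 and 0.277 in the same order. The medians for the giant rows were 1.79 in the QTRT1 library, 1.76 and 1.80 in QTGAL, and 1.73 and 1.66 in QTMAN knockout replicates 1 and 2. These 5 values lie close together compared with the distance between length classes.

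**Figure D2:**
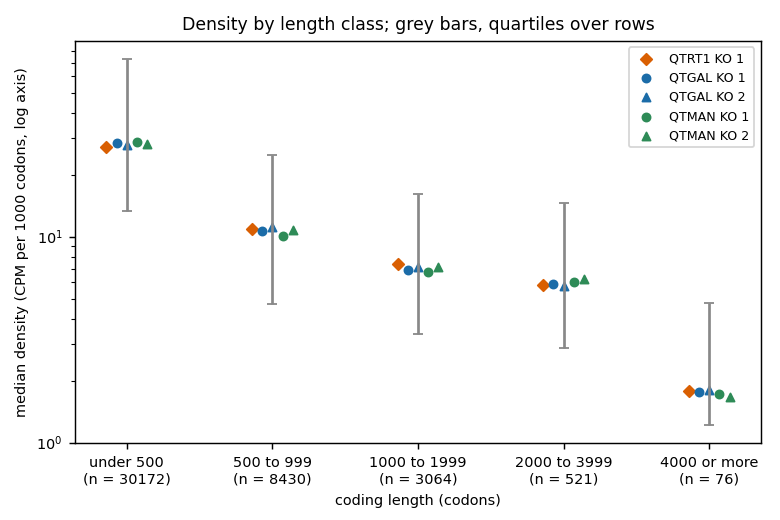
Median footprint density (CPM per 1000 codons, log axis) by coding length for distinct rows with at least 100 counts, a point per library, with grey bars for the quartiles over rows. Density falls from 28.4 in the shortest class to 1.76 in the longest, and the 5 libraries nearly coincide within each class.

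In 27 loci more than 1 row met the rule, and these rows largely repeat the same footprints. All rows of a locus had identical counts in 9 loci. In 9 loci, which include PCLO from the former, the longest row exceeded the shortest by at least 100 codons, and the added codons held very unequal shares. MACF1, a spectraplakin that links actin to microtubules, had 742 counts in its shortest row of 4434 codons and 871 in its longest of 7593, so 3159 more codons brought a net 129 counts, a density 0.244 times that of the shorter row. Between them, its rows of 5431, 5939 and 7389 codons had 870, 740 and 859 counts, with no steady order by length. DST, the spectraplakin dystonin, had 882 counts over 5172 codons and 900 over 7462, so 2290 more codons brought a net 18 counts, a density 0.0461 times that of the shorter row.

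PCLO, a presynaptic scaffold, gained 0 counts with 207 codons, and PLEC, the intermediate filament linker plectin, gained 0 with 169. In SYNE1, a nesprin of the nuclear envelope, 405 added codons brought 65 counts, 1.43 times the density of the shorter row. In LRP1B, a receptor of the LDL receptor family, 194 codons brought 31 counts, 2.55 times that density. In PRKDC, the locus with the most counts, 31 codons brought 293 counts, 9.45 per codon against 8.02 in its 4098-codon row. The tables do not state which rows nest in which, so each of these is a net difference between rows.

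**Figure D3:**
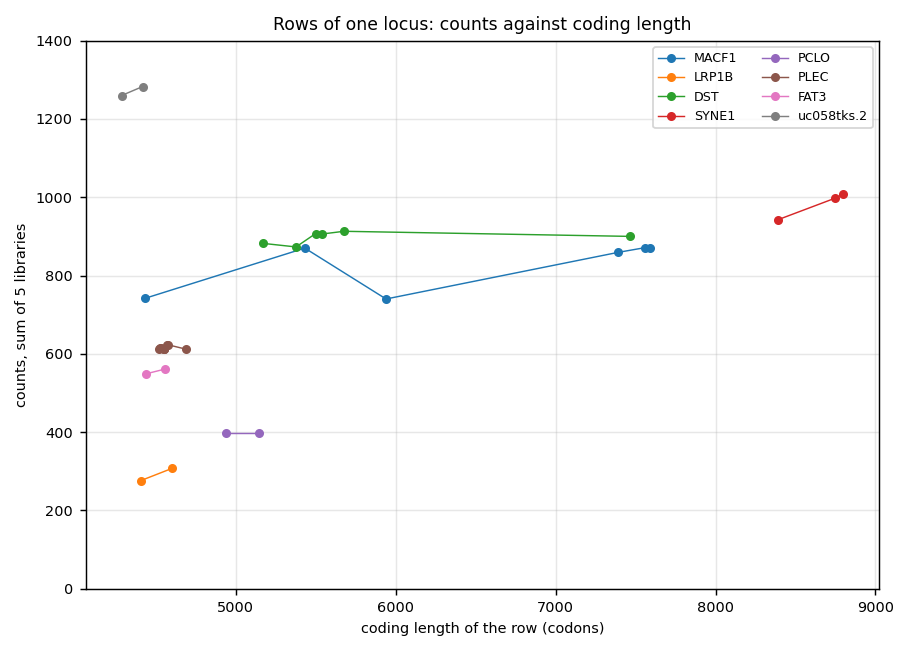
Counts summed over 5 libraries against coding length (codons) for each row of 8 loci whose longest and shortest rows differ by at least 100 codons, with lines joining rows of one locus. The MACF1 rows lie between 740 and 871 counts and the DST rows between 873 and 913, in no steady order by length.

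The QTRT1 library was set against the average of both glycosyltransferase knockouts, a comparison of loss of the modification with loss of 1 of its sugars. Of the 76 giant rows, all tested, edgeR called 1 higher and 0 lower in the QTRT1 library, against 0.121% higher and 0.0394% lower of all 60966 rows tested. The call is EPPK1, epiplakin, a repeat protein of the plakin family that binds intermediate filaments. The row uc064rfx.1 of 5064 codons, with the same counts as its 5089-codon row, reached 19.3 CPM in the QTRT1 library. It stood at 9.98 and 10.4 CPM in QTGAL knockout and at 8.75 and 9.26 CPM in QTMAN knockout. The single QTRT1 value lies above all 4 others, which lie close together, and the QTGAL values lie above the QTMAN values.

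EPPK1 thus rose 2.02-fold, or by 1.01 ± 0.16 on the log2 scale (SE, with an edgeR adjusted p of 0.0408). Against QTMAN knockout alone it was 1.10 (edgeR adjusted p = 0.0482), and against QTGAL knockout alone 0.93 (edgeR adjusted p = 0.174). The call did not hold at a filter of 5 CPM in 2 libraries (edgeR adjusted p = 0.0564) or without QTGAL replicate 1 (edgeR adjusted p = 0.0610). It rests on 1 QTRT1 library assumed to vary like the others, and EPPK1 consists of near-identical repeats, so its counts may depend on how repeated reads were assigned. PLEC, a plakin that lies beside EPPK1 on chromosome 8, had 7.62 CPM in the QTRT1 library, 7.38 and 5.90 in QTGAL and 7.18 and 5.45 in QTMAN knockout, a log2 fold change of 0.23 ± 0.23. Within 500 rows of EPPK1, the 231 distinct tested rows with at least 100 counts, its own giant rows left out, had a median of 0.11. Neighbouring rows below are chosen in the same way.

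No other difference in this comparison passed. The unnamed uc058tks.2, of 4417 codons, had 20.1 CPM in the QTRT1 library, 12.5 and 13.1 in QTGAL and 13.7 and 11.7 in QTMAN knockout, a log2 fold change of 0.66 ± 0.16 (edgeR adjusted p = 0.166). It was called with no filter on low counts (edgeR adjusted p = 0.0355). The QTRT1 value lies above the range of the other 4 libraries, and the rows within 500 rows of this locus had a median of 0.00.

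Other loci with large differences rest on lower counts. PKD1, the membrane protein polycystin-1 of primary cilia, had 6.55 CPM in the QTRT1 library, 4.36 and 5.81 in QTGAL and 4.14 and 3.65 in QTMAN knockout. The unnamed uc031usp.2 had 2.49, then 1.34 and 1.43, then 0.786 and 2.50 CPM, a log2 fold change of 0.70 ± 0.47. For PKD1 the QTRT1 value is the highest of the 5, and for uc031usp.2 a QTMAN value reaches it.

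On the lower side, MACF1 had 6.91 CPM in the QTRT1 library, 9.27 and 10.5 in QTGAL and 11.8 and 8.27 in QTMAN knockout. DNAH14 had 6.62, then 7.72 and 10.03, then 9.33 and 10.9 CPM, a log2 fold change of -0.51 ± 0.22. ANK3, the membrane adaptor ankyrin-G, had 5.27, then 6.25 and 6.99, then 7.65 and 8.15 CPM, a log2 fold change of -0.45 ± 0.21. The neighbouring rows within 500 rows had median log2 fold changes of -0.18 at MACF1, -0.33 at DNAH14 and 0.07 at ANK3. How far these differences belong to their neighbourhoods was not tested. In all 3 of these loci the QTRT1 value is the lowest, and none passed the threshold (edgeR adjusted p from 0.42 to 0.456).

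Some related proteins had opposite signs here, none past the threshold apart from EPPK1. SYNE2 and SYNE1, both nesprins, had log2 fold changes of 0.55 ± 0.20 and -0.46 ± 0.28. The SYNE1 value ran from -0.66 to -0.19 over the other settings. Its density in the QTRT1 library, 0.923, lay within the range of the other libraries, above 0.777 in QTGAL replicate 1. The plakins PLEC and MACF1 had 0.23 ± 0.23 and -0.52 ± 0.24. Of the other plakins, DST had 0.003 and EPPK1 had 1.01. Neighbouring rows had medians of 0.04 at SYNE2, -0.22 at SYNE1, 0.11 at PLEC and -0.18 at MACF1. Whether the signs follow the neighbourhoods was not tested. Among the cell surface and matrix proteins 8 of 10 lay above 0, beside 26 of all 45 loci. The median of the 10 was 0.20, and 0 were called. The 8 ranged from LRP1B at 0.02 to FAT3 at 0.67 ± 0.41, with PKD1 at 0.57 ± 0.24. Without QTMAN replicate 2 FAT3 had 0.35, and without QTMAN replicate 1 it had 1.21 and was called (edgeR adjusted p = 0.00985). PKD1 and HERC2 have near-identical copies elsewhere in the genome, so their counts are uncertain. The most abundant giants had values near 0 in this comparison, with -0.16 ± 0.11 for PRKDC, -0.02 ± 0.13 for HUWE1 and -0.02 ± 0.13 for DYNC1H1.

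Across the 76 giant rows the median log2 fold change was 0.03, against 0.00 over all rows tested, and it was 0.06 over the 45 loci. Rows of one locus repeat footprints, so the row counts that follow are not counts of loci. Under an unadjusted edgeR p of 0.05, 11 giant rows were higher and 6 lower, while 5.69% and 5.55% of all tested rows were. The QTRT1 library stood above all 4 others at 17 loci, 37.8%, against 24.1% of all distinct rows with at least 100 counts. It stood below all 4 at 8 loci, 17.8%, against 25.6%. They included ANK3, ALMS1, DNAH14, FAT1, KMT2C, MACF1 and PRKDC. These shares were not computed by length class. The median log2 deviation of the QTRT1 library from the mean of the 5 libraries was 0.034 over the giant rows. It was also 0.034 from 2000 to under 4000 codons, 0.033 from 1000 to under 2000 and 0.031 from 500 to under 1000. Below 500 codons it was -0.017.

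Against QTGAL knockout alone, edgeR called 0 of 76 giant rows, beside 0.0082% higher and 0.00164% lower of all tested rows (0.00984% together). Under an unadjusted edgeR p of 0.05, 9 giant rows were higher and 1 lower, beside 4.81% and 5.22%. Against QTMAN knockout alone, EPPK1 was the 1 call, beside 0.0705% higher and 0.0459% lower (0.116% together). Unadjusted, 12 giant rows were higher and 10 lower, beside 5.64% and 5.72%. The giants' medians were 0.06 and 0.04, and these comparisons share the QTRT1 library. Here too, several rows of one locus can enter the row counts.

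**Figure D4:**
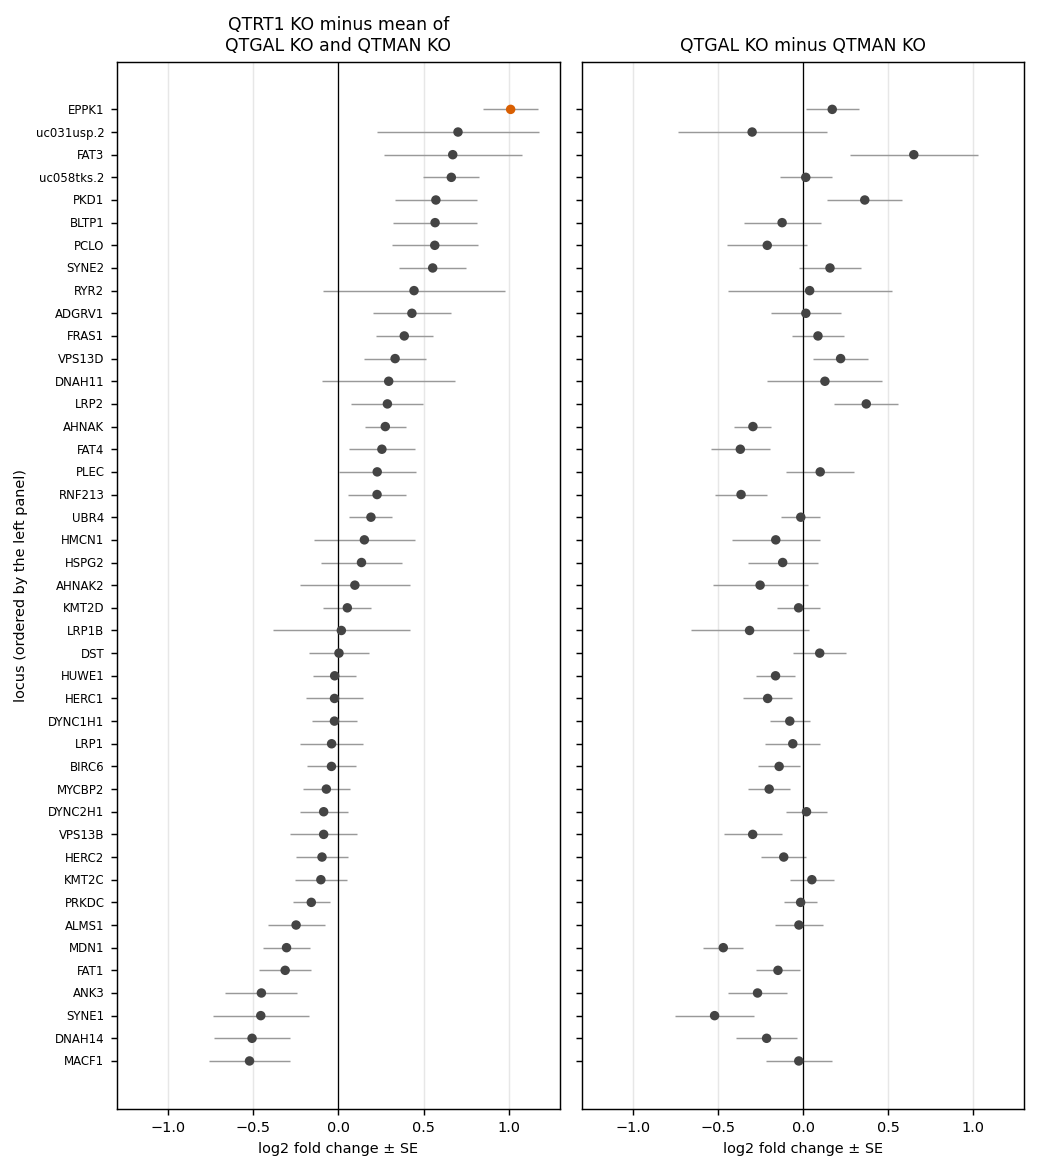
Log2 fold change with SE for 43 of the loci, QTRT1 knockout minus the mean of the other knockouts on the left and QTGAL minus QTMAN knockout on the right, both ordered by the left panel, with called loci in orange. EPPK1 at 1.01 is the only orange point, and MACF1 at -0.52 is the lowest drawn on the left.

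The comparison of both QTGAL with both QTMAN libraries sets loss of galactose in the tyrosine tRNA against loss of mannose in the aspartate tRNA. No giant row passed, and edgeR called 0.0% of all 60966 rows. Under an unadjusted edgeR p of 0.05, 0 giant rows were higher and 7 lower, beside 3.19% and 3.3% of all rows. With 1 row per locus, 0 of the 45 loci were higher and 4 lower. DESeq2 gave an adjusted p for 13 of the 76 rows and called 0. The median log2 fold change was -0.02 over the 76 rows and -0.08 over the 45 loci, of which 15 lay above 0 and 30 below.

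MDN1 (uc003pnn.2), at chr6:89642498-89819794, had the smallest p among the loci. It stood at 37.1 and 41.1 CPM in QTGAL knockout and at 53.0 and 55.0 CPM in QTMAN knockout, with 37.2 in the QTRT1 library. The QTGAL and QTMAN values do not overlap, and the QTRT1 value falls with the lower pair. The log2 fold change was -0.47 ± 0.12 (SE), with an unadjusted edgeR quasi-likelihood p of 0.00186 and an edgeR adjusted p of 0.572. In this comparison the rows neighbouring MDN1 had a median of 0.00. For QTRT1 knockout against both, MDN1 had -0.30 and those rows a median of -0.27. How far its QTRT1 value belongs to its neighbourhood was not tested.

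AHNAK stood at 63.8 and 67.1 CPM in QTGAL knockout, 82.5 and 78.1 in QTMAN knockout and 87.7 in the QTRT1 library, a log2 fold change of -0.29 ± 0.11 (edgeR adjusted p = 0.746). Here the QTRT1 value falls with the QTMAN pair. SYNE1 had 6.84 and 12.4 CPM in QTGAL and 12.3 and 14.3 in QTMAN knockout, so its groups overlap in spite of a log2 fold change of -0.52 ± 0.23. RNF213 had 14.6 and 17.8 CPM in QTGAL, 19.3 and 21.9 in QTMAN knockout and 21.3 in the QTRT1 library, a log2 fold change of -0.36 ± 0.15. The 311 neighbouring rows within 500 rows of it, distinct and with at least 100 counts, had a median of -0.35, with 9.0% of them above 0. How far the difference at RNF213 belongs to its neighbourhood was not tested.

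On the higher side of this comparison, LRP2, the endocytic receptor megalin, had 12.8 and 12.1 CPM in QTGAL and 11.5 and 7.86 in QTMAN knockout, a log2 fold change of 0.37 ± 0.19. PKD1 had 0.36 ± 0.22 and VPS13D, with 8.35 and 8.51 against 7.55 and 6.92 CPM, had 0.22 ± 0.16. On the lower side, FAT4, an atypical cadherin, had 7.63 and 9.60 against 11.6 and 10.4 CPM, a log2 fold change of -0.37 ± 0.17. The groups of LRP2, VPS13D and FAT4 do not overlap, though none was called (edgeR adjusted p from 0.775 to 0.882).

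The 6 loci measured from the ubiquitin ligase list, which does not hold RNF213, all lay below 0, between -0.21 and -0.01 with a median of -0.15, and 0 were called. HUWE1, the most abundant of them, had 163 and 148 CPM in QTGAL and 162 and 186 CPM in QTMAN knockout, which overlap. Both QTGAL libraries stood above both QTMAN libraries at 6 loci, 13.3% against 18.6% of all distinct rows, namely EPPK1, LRP2, PKD1, SYNE2, VPS13D and DST. They stood below at 8 loci, 17.8% against 18.4%, namely AHNAK, ANK3, FAT4, HERC1, MDN1, MYCBP2, RNF213 and VPS13B. These shares lie near or under the background.

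**Figure D5:**
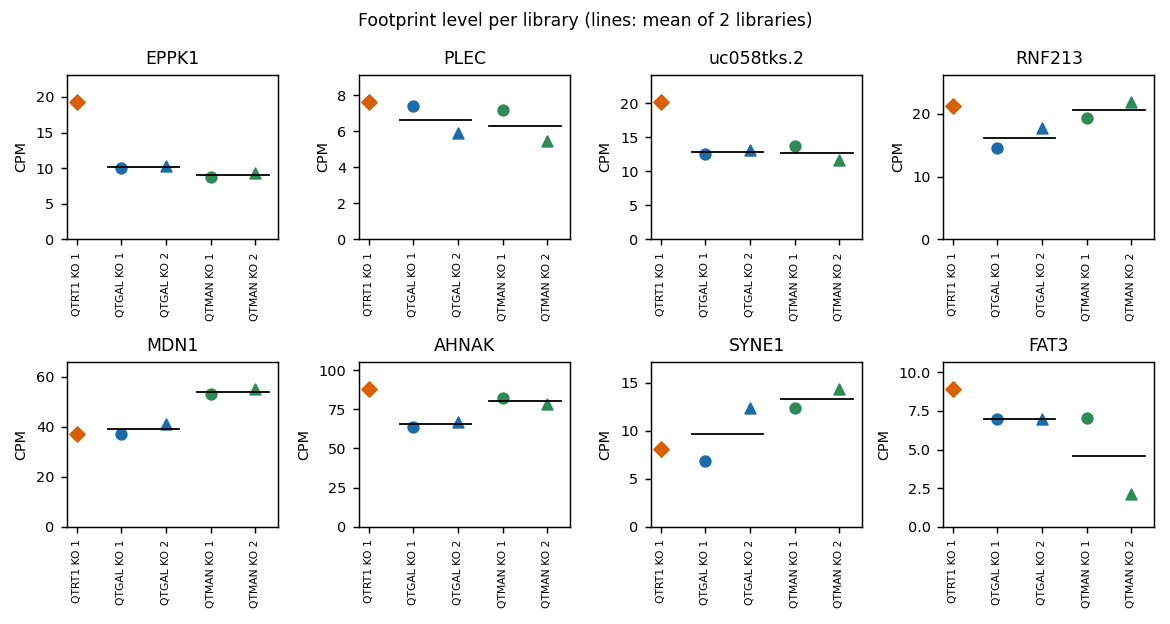
CPM per library for 8 loci, with a panel and a linear axis from 0 for each, and a line at the mean of each pair of libraries. EPPK1 is at 19.3 in the QTRT1 library and at most 10.4 elsewhere, MDN1 is higher in both QTMAN libraries, and FAT3 is low in QTMAN replicate 2 alone.

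FAT3, an atypical cadherin (uc001pdj.5) at chr11:92224818-92896473, differed more between replicates than between genotypes. Its level in the QTRT1 library was 8.90 CPM. The QTGAL replicates had 7.01 and 6.99, and the QTMAN replicates 7.02 and 2.13. The QTMAN replicates thus differed 3.30-fold (95% exact interval 2.38 to 4.64, counting error only). With QTMAN replicate 1 left out, QTGAL minus QTMAN knockout was 1.72 (edgeR adjusted p = 0.0042, with the lone library assumed to vary like the others). With QTMAN replicate 2 left out it was -0.01, against 0.65 ± 0.38 (edgeR adjusted p = 0.852) with both.

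Among the 45 loci the QTMAN replicates also differed over 2-fold at uc031usp.2, RYR2 and LRP1B, and the QTGAL replicates at loci that included RYR2 and AHNAK2. The median absolute log2 difference was 0.147 within the QTGAL pair and 0.163 within the QTMAN pair. It ran from 0.141 to 0.207 between a QTGAL and a QTMAN library, and from 0.221 to 0.261 between the QTRT1 library and the others. The counting interval of the replicate ratio included 1 at 35 loci for QTGAL and at 30 for QTMAN knockout.

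Summed over distinct rows, the giants took 0.251% of counts in the QTRT1 library, 0.250% ± 0.0047 in QTGAL and 0.262% ± 0.0015 in QTMAN knockout (SD, n = 2 each). The QTGAL share was lower by 0.0115 percentage points, with a two-sided exact permutation p of 0.333, the smallest that 2 libraries against 2 can give. Rows that share footprints enter these sums more than once. With 1 row per locus, 4 loci held 52.9% of the giant counts. These were PRKDC with 26.4%, HUWE1 with 12.4%, DYNC1H1 with 8.5% and AHNAK with 5.59%. Without PRKDC and HUWE1 the shares over distinct rows were 0.137% in the QTRT1 library, 0.130% in QTGAL and 0.138% in QTMAN knockout. With 1 row per locus and without PRKDC and HUWE1 they were 0.0991%, 0.0922% and 0.0983% in the same order.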

How the data were processed

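Per the labels' protocols, ribosome footprints were made with RNase I from 5 libraries, and no molecular identifiers are mentioned. The deposited tables hold whole-number counts per transcript, not normalized, and a deposited length column (of another unit than counts, read as codons with the stop). The submitters' processing notes name bcl2fastq 2.19, CASAVA, STAR 2.7.0a and hg38; the counting program, annotation and treatment of shared reads are not stated in any source used here.

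The test was edgeR 4.0.16 in R 4.3.3 (filterByExpr by genotype, TMM, quasi-likelihood, 1 mean per genotype, 2 residual degrees of freedom), with Benjamini-Hochberg adjustment over all 60966 rows tested and a threshold of 0.05. CPM were scaled by TMM-adjusted library size. Simulated data served to check the fit, and DESeq2 1.42.0 was an alternative. QTRT1 knockout had 1 library and replicates were numbered in accession order. The members and the gene lists were chosen with earlier results of these data known. Under the naming rule, rows without a match in a reference table of protein lengths were to keep their identifiers. No such table was used here, so recalled protein lengths were taken instead, a departure made after the tables had been seen. The rule for values per library took the 15 loci with the most counts, every called row, and the 5 highest and lowest densities. It also took the 5 largest differences in each direction, for QTGAL with QTMAN and for QTRT1 with both. The members of each gene list were to be included as well, but not all of them have values per library here, a further departure. The results of 2 loci are not reported here, though both count in the totals.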

Additional observations from a re-analysis of the deposited data

How the results depend on the processing

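EPPK1 kept its sign in every setting of the comparisons in which it was called. The medians have no threshold, and those for QTRT1 knockout against both and against QTMAN knockout alone changed sign in some settings. For QTGAL against QTMAN knockout, the giants' median log2 fold change of -0.02 became -0.096 with 1 row per group of neighbouring rows, -0.078 with 1 row per locus and -0.055 at 5000 codons or more, and ran from -0.095 to -0.020 with 1 library left out, when 0 to 2 rows were called (both of FAT3). For QTRT1 knockout against both, the median of 0.03 became 0.056, 0.060, -0.021 (at least 500 counts) and -0.0037 (replicate block), and 0.0085 to 0.063 with 1 library left out. Calls there were 3 with no filter, 0 at 5 CPM in 2 libraries and 0 to 3 with 1 library left out, 0 without QTGAL replicate 1 and 3 without QTMAN replicate 1. Against QTGAL knockout alone the median of 0.06 became 0.14, 0.17, 0.016 and 0.019 (replicate block), and 0.049 to 0.14 with 1 library left out, with 1 call with no filter and 0 to 1 with 1 library left out. Against QTMAN knockout alone the median of 0.04 became 0.0050 (neighbouring rows) and -0.062 (at least 500 counts), with 0 calls at 5 CPM, 0 by DESeq2, which gave EPPK1 no adjusted p there, and 1 to 3 with 1 library left out. Median density was 2.36 by neighbouring rows, 2.28 by locus, 2.28 at 500 counts and 3.59 by locus at 500 counts, against 1.76. The cause was not tested. Replicate numbers came from accession order, and the QTGAL and QTMAN replicate differences correlated at 0.206 over 42263 rows; the replicate block left the called counts the same. The share with neighbouring rows joined in the whole table was not run. Settings by locus were added after seeing the data.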
